A study of Cocos nucifera with 22 samples.

Results

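Salted leaves of Hainan tall and of Aromatic dwarf, 2 varieties of coconut, were compared directly with each other at 6 days, using the 6 libraries of that time among 22 in the series. All libraries whose label gives the time of 6 days were taken, 3 from Hainan tall (tall) and 3 from Aromatic dwarf (dwarf). Both groups were greenhouse seedlings watered with 200 mM NaCl in a diluted nutrient medium, so they share the salt and the medium, and the study describes no unsalted leaves after 0 h. The other libraries of each variety were taken before salt (0 h), at 4 h and at 10 days. The study states that leaves with the same number are the same leaf sampled again, and it gives 3 seedlings as its replications and 3 different leaves as the source of the RNA. In the main fit the p-values set a difference against the spread between libraries of the same variety and time, estimated over all 22 libraries. That fit has no term for the leaf, although the same leaves recur across times. Tall numbers are not paired with dwarf numbers.

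Salt reaches a leaf first as osmotic stress and later, as sodium and chloride accumulate, as ionic stress. Leaves respond with abscisic acid (ABA) signalling, ion transport by the salt overly sensitive (SOS) pathway, enzymes that remove reactive oxygen species (ROS), protective proteins and changes in the cuticle. Tall and dwarf coconuts differ in stature, and tall coconuts mostly cross-pollinate whereas dwarf coconuts mostly self-pollinate. The expression data are expected counts of reads per gene and FPKM, a level scaled to the length of the gene and to the size of the library. Reads of both varieties were aligned to genes of Hainan Tall. A low value in the dwarf can therefore be a lower level or poorer alignment, which cannot be told apart here.

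The total expected count was 3226295 to 3445467 in the 3 tall libraries and 3061624 to 3189014 in the 3 dwarf libraries. Markers of green leaf were abundant in every library. The summed level of 19 such genes, among them the Rubisco small chain and the chlorophyll a-b binding proteins, was 104905 to 128489 FPKM in the tall and 91952 to 128256 in the dwarf. Summed over 12 markers of growing tissue it was 2473 to 2791 in the tall and 2471 to 3563 in the dwarf. Over 3 vascular markers it was 65.4 to 291 and 142 to 253. A marker of seed tissue, an 11S globulin, did not overlap between the varieties, at 169 to 931 FPKM in the tall and 2.69 to 87.2 in the dwarf. None of the markers was called, and none was at 0 in every library.

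By their correlations and on component 1 of a principal component analysis, the libraries did not separate by variety. Tall replicate 3 was as close to dwarf replicates 1 and 2 (Spearman correlation 0.955 and 0.953) as tall replicates 1 and 2 were to each other (0.955). Its correlation with the tall replicates 1 and 2 was lower, 0.931 and 0.942. Dwarf replicate 3 had its highest correlation with tall replicate 1 (0.939), above 0.93 and 0.933 with the other dwarf libraries. Over the 6 pairs within a variety the correlation was 0.93 to 0.955, and over the 9 pairs between varieties it was 0.924 to 0.955. As a check for a library deposited more than once, chi-square per gene was computed for each pair. It was 6.46 or more, so no pair was counted as 1 sample. Component 1 held 35.8% of the variance and put tall replicate 3 (-24) with dwarf replicates 1 (-28.0) and 2 (-22.6), and dwarf replicate 3 (16.8) with tall replicates 1 (34.8) and 2 (23). Component 2 held 23.7%, and on it all 3 tall libraries lay below all 3 dwarf libraries.

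**Figure D1:**
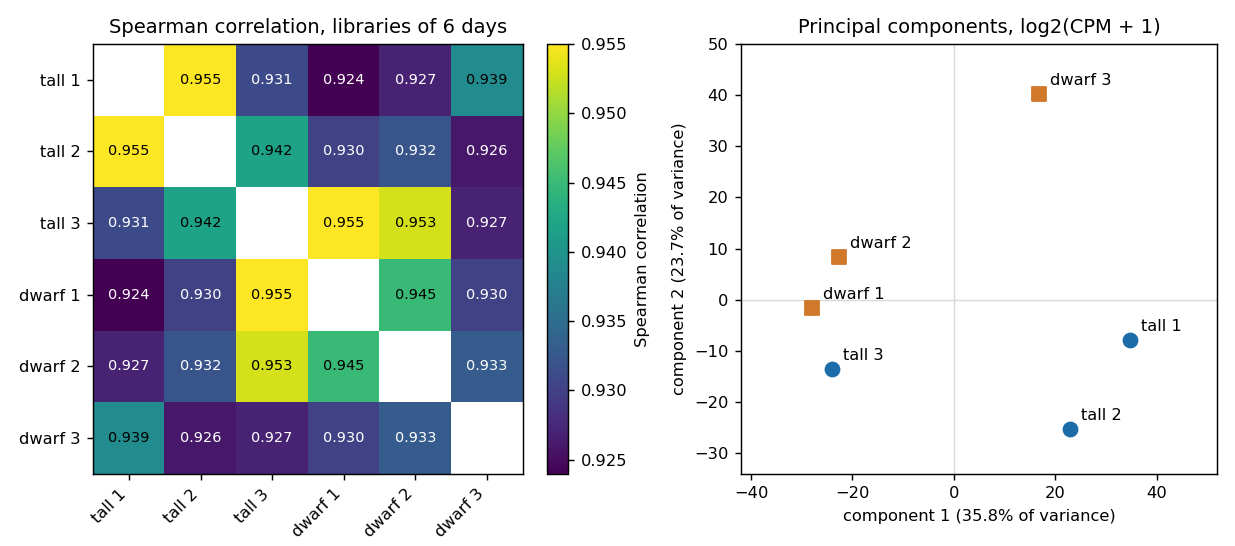
Similarity of the 6 libraries of 6 days. The left panel gives the Spearman correlation of each pair over genes, and the right panel places each library on the principal components 1 and 2 of log2(CPM + 1) with their share of the variance; tall replicate 3 lies beside dwarf replicates 1 and 2, and dwarf replicate 3 lies apart.

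A small set of genes was on in some leaves of a variety and off in others, with the same leaves on at 0 h and at 4 h. On was taken as at least 5 CPM (counts scaled to the size of the library) and off as at most 1.5 CPM, every leaf had to be on or off at 0 h, 4 h and 6 days, and the set was chosen after these values were seen. There were 23 such genes in the tall and 14 in the dwarf (6 in both, 31 in all). None of them was called between the varieties at 6 days, beside 0.0265% of all genes tested. They were chosen for differing among the leaves of a variety, which makes a call harder. In the tall, the replicate numbers held: all 23 genes were on in the same numbers at 6 days as at 0 h. In the dwarf they did not. Only 4 of 14 genes kept their numbers, and all 14 did so when numbers 1 and 3 of 6 days were exchanged. The libraries labelled dwarf 1 and dwarf 3 at 6 days thus carry the on and off genes of leaves 3 and 1 of the earlier times.

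One gene shows the shift plainly. COCehwD006677.1 stood at 61.3, 51.2 and 0.0 CPM in dwarf replicates 1, 2 and 3 at 0 h and at 44.2, 39.6 and 0.3 at 4 h. At 6 days it stood at 0.0, 78.6 and 75.7. In the tall it was at 0.6 CPM or less in each of these 9 libraries. The difference between the varieties at 6 days does not use the numbers. An exchange of the numbers alone thus touches only the fits with a leaf block and the correlation of same-numbered leaves. Dwarf replicates 1 and 3 of 6 days were on different flow cells, and the flow cell is a term of the main fit. Whether the flow cell went with the number was not tested.

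**Figure D2:**
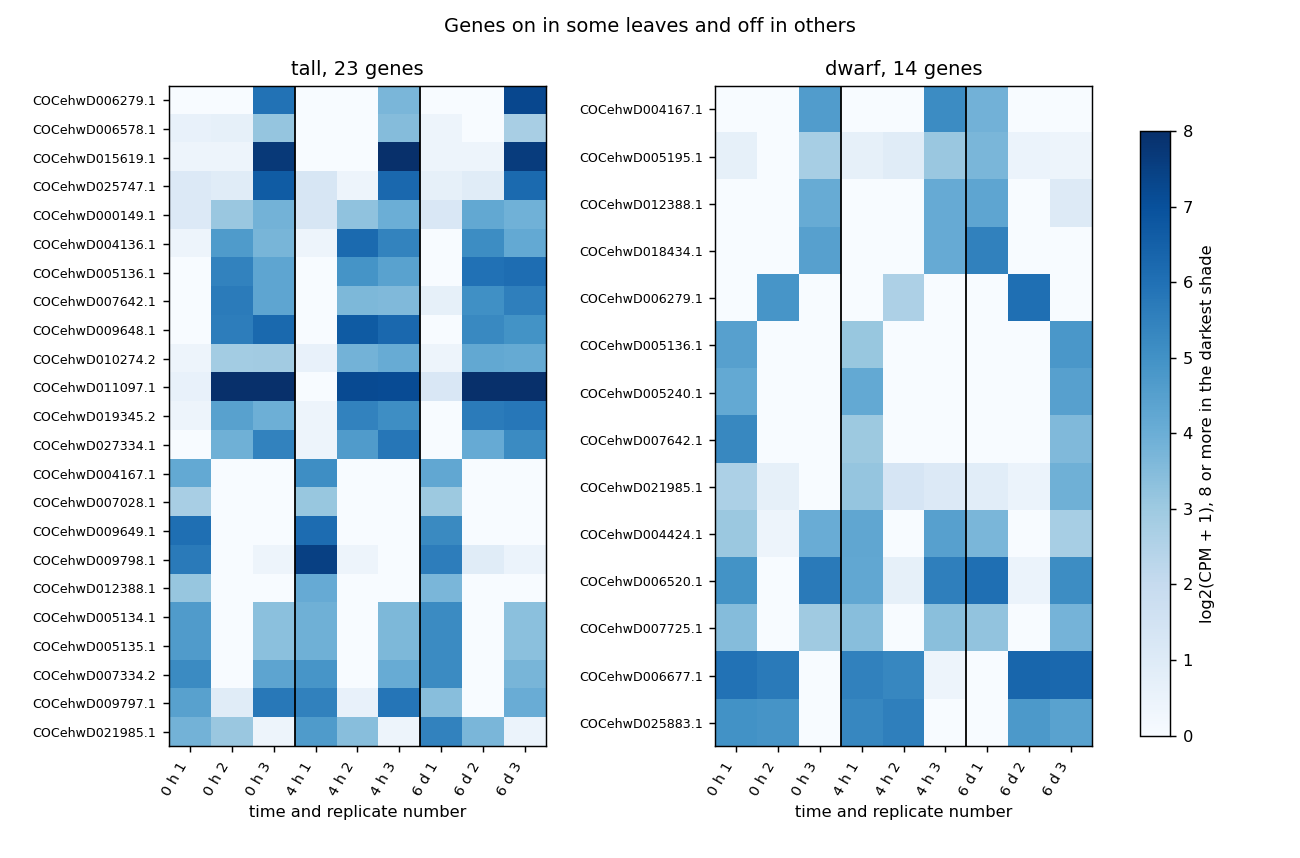
Genes that were on in some leaves of a variety and off in others, 23 in the tall (left) and 14 in the dwarf (right). Rows are genes, columns are libraries by time and replicate number, and the shade is log2(CPM + 1); the pattern of each row repeats in the same order at 6 days in the tall, whereas in the dwarf the columns 1 and 3 of 6 days are exchanged.

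The same set also separates the leaves within the tall. Of its 23 genes, 9 were off in replicate 1 only, 5 were on in replicate 1 only and 4 were on in replicate 3 only. In all 3 dwarf libraries, 11 of the 23 were on and 2 were off. COCehwD015619.1 was on in tall replicate 3 (193 CPM) and at 0.3 in both other tall libraries, and in the dwarf it stood at 117, 519 and 1.7. The only gene of the set with a product name was a nascent polypeptide-associated complex subunit beta (CN01_scaffold021036G000010, COCehwD009648.1), which takes part in handling proteins as they leave the ribosome. It had 0.0 CPM in tall replicate 1 against 22.5 to 37.6 in the other 5 libraries, while the gene with the next number, COCehwD009649.1, had 36.7 CPM in tall replicate 1 and 0.0 in the other 5. Reads can be split between genes that are near-identical copies. The sequences of these 2 genes were not compared, so their separate levels are uncertain.

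Between the varieties, 5 genes differed at 6 days, 4 higher in the tall and 1 higher in the dwarf (edgeR quasi-likelihood test, Benjamini-Hochberg adjusted p under 0.05). They were 0.0265% of 18840 genes tested, 0.0212% higher and 0.00531% lower in the tall. None of the 5 has a product name in the sources used here, and none of the 738 tested genes that have an entry in the study's list of product names was called. At an unadjusted p under 0.05 there were 1468 genes (7.79%), 653 higher in the tall (3.47%) and 815 lower (4.33%). DESeq2 called 26 genes (0.141%), which included all 5, with 14 higher (0.0759%) and 12 lower (0.0651%) in the tall. The 3 tall values lay wholly above or below the 3 dwarf values for 2179 genes (11.6%), with 1030 above (5.47%) and 1149 below (6.1%).

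The varieties differed in more genes at the other times, by the same fit. At 0 h there were 77 genes (0.409%), 38 higher (0.202%) and 39 lower (0.207%) in the tall. At 4 h there were 199 (1.06%), 135 higher (0.717%) and 64 lower (0.34%). At 10 days, where each variety has 2 libraries, there were 14 (0.0743%), 12 higher (0.0637%) and 2 lower (0.0106%). These counts were not tested against that of 6 days. The difference of 6 days minus that of 0 h was called for no gene by edgeR, with 1720 genes (9.13%) at an unadjusted p under 0.05. DESeq2 called 14 for it (0.0744%), 10 in favour of the tall (0.0532%) and 4 of the dwarf (0.0213%). With the leaf as a fixed block, edgeR called 0 genes by the labelled numbers and 2 with dwarf numbers 1 and 3 of 6 days exchanged, COCehwD013016.1 (1.99, edgeR adjusted p = 0.0348) and a 17.3 kDa class II heat shock protein, COCehwD025029.1 (2.18, edgeR adjusted p = 0.0214). The exchanged block also treated each dwarf library of 10 days as a leaf of its own.

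The precision at 6 days sets how these numbers can be read. Over 11907 genes with a mean of at least 10 CPM, the median standard deviation between leaves was 0.24 in the tall and 0.26 in the dwarf on the log2 scale. The median size of the edgeR difference was 0.18. It is a difference between groups of 3 leaves, so it is not a like measure to the spread of single leaves. The median 95% interval reached 0.47 on the log2 scale to each side, a factor of 1.39. In simulated counts for this comparison, 97% of 100 genes with a 4-fold change were called, but 33% of 100 with a 2-fold change. Every simulated gene had the same relative spread, and the libraries were drawn independently. The changed genes were drawn only from genes with a mean of at least 10 counts. These shares need not hold for real genes of wider spread or lower counts. A gene that was not called is therefore not shown to be alike in the varieties.

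**Figure D3:**
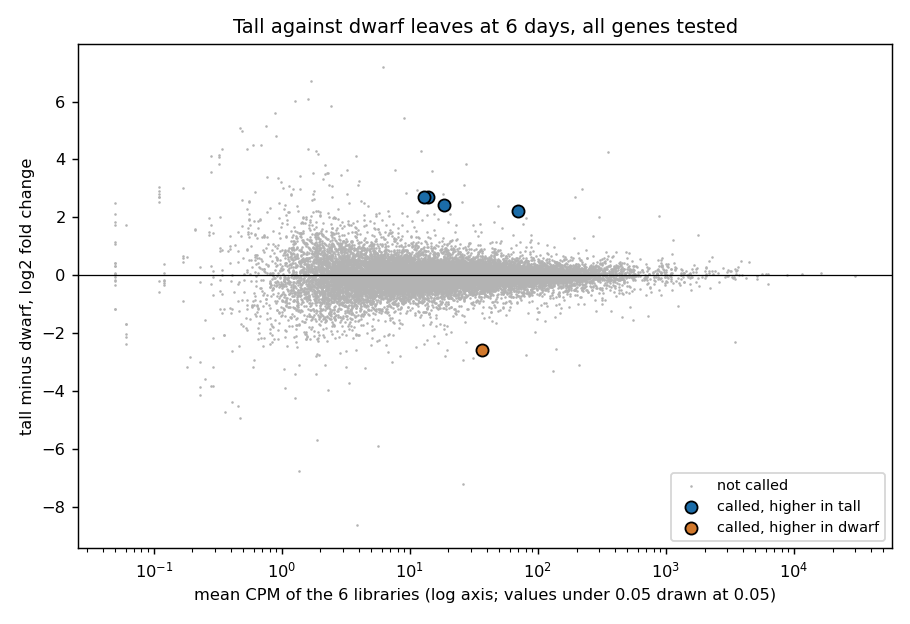
Tall minus dwarf at 6 days for all genes tested. Each point is a gene, with its mean CPM over the 6 libraries on a log axis and its log2 fold change; the 4 genes called higher in the tall (blue) and the gene called higher in the dwarf (orange) lie outside the main cloud, and uncalled genes of larger change lie mostly at lower levels.

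The gene called higher in the dwarf was COCehwD026503.1. Its level was 4.2, 4.35 and 3.55 FPKM in tall replicates 1 to 3 and 21.9, 32.2 and 15.4 FPKM in dwarf replicates 1 to 3, so the groups lay far apart and the tall leaves hardly differed. The difference was -2.58 on the log2 scale (SE 0.33, 95% interval -3.29 to -1.88, edgeR adjusted p = 0.0082). The dwarf was also higher at 0 h (-5.21, edgeR adjusted p = 7.93e-05) and at 10 days (-3.57, edgeR adjusted p = 0.00231). The tall libraries of 0 h had 1, 4 and 1 expected counts, so the size of the difference at 0 h is uncertain. At 4 h both varieties were low, with 0.85 ± 0.57 FPKM (SD, n = 3) in the tall and 1.26 ± 0.29 (SD, n = 3) in the dwarf, and the difference of -0.55 was not called.

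COCehwD019637.1 was higher in the tall at the 2 late times only by the calls. It stood at 37.2, 48.3 and 27.0 FPKM in the tall and at 6.67, 6.40 and 3.01 in the dwarf at 6 days, without overlap. These dwarf values rest on few reads, 11, 11 and 5 expected counts. The difference was 2.71 (SE 0.39, 95% interval 1.89 to 3.53, edgeR adjusted p = 0.018), and at 10 days it was 2.5 (edgeR adjusted p = 0.0477). At 0 h and 4 h it was 0.89 and -0.23, neither of them called. The difference of 6 days minus that of 0 h, 1.82 (SE 0.56), did not pass (edgeR adjusted p = 0.458), so a change in the gap since 0 h is not shown.

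COCehwD000668.2 kept a gap at all times. It had 24.7, 25.8 and 17.8 FPKM in the tall against 2.78, 5.67 and 1.38 in the dwarf at 6 days. The difference of 2.70 (SE 0.40, 95% interval 1.86 to 3.55, edgeR adjusted p = 0.0184) stood beside 3.0 at 0 h (edgeR adjusted p = 0.00906), 1.52 at 4 h and 2.32 at 10 days, the last 2 not called. The dwarf values rest on few reads, since the lowest library had 4 expected counts.

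COCehwD024019.1 was the most deeply counted of the 5, with 54 to 610 expected counts per library. Its level was 13.2, 32.3 and 10.9 FPKM in the tall and 3.84, 3.06 and 4.64 in the dwarf. Tall replicate 2 was thus well above the other tall leaves, and all 3 were above the dwarf. The difference was 2.23 (SE 0.37, 95% interval 1.45 to 3.01, edgeR adjusted p = 0.0457), and it was also called at 0 h (1.82, edgeR adjusted p = 0.0418) and 4 h (1.74, edgeR adjusted p = 0.0256). At 10 days it was 1.04 and was not called (edgeR adjusted p = 0.322).

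COCehwD013915.1 had 89.4, 150.0 and 124 FPKM in the tall and 29.1, 19.6 and 21.7 in the dwarf. The difference was 2.44 (SE 0.41, 95% interval 1.58 to 3.29, edgeR adjusted p = 0.0457). At the other times it was between 1.45 and 1.52 and was not called. The rule for naming genes takes at most 2 unnamed genes in a direction, so COCehwD024019.1 and COCehwD013915.1 are named because the count was so small, after their values were seen.

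**Figure D4:**
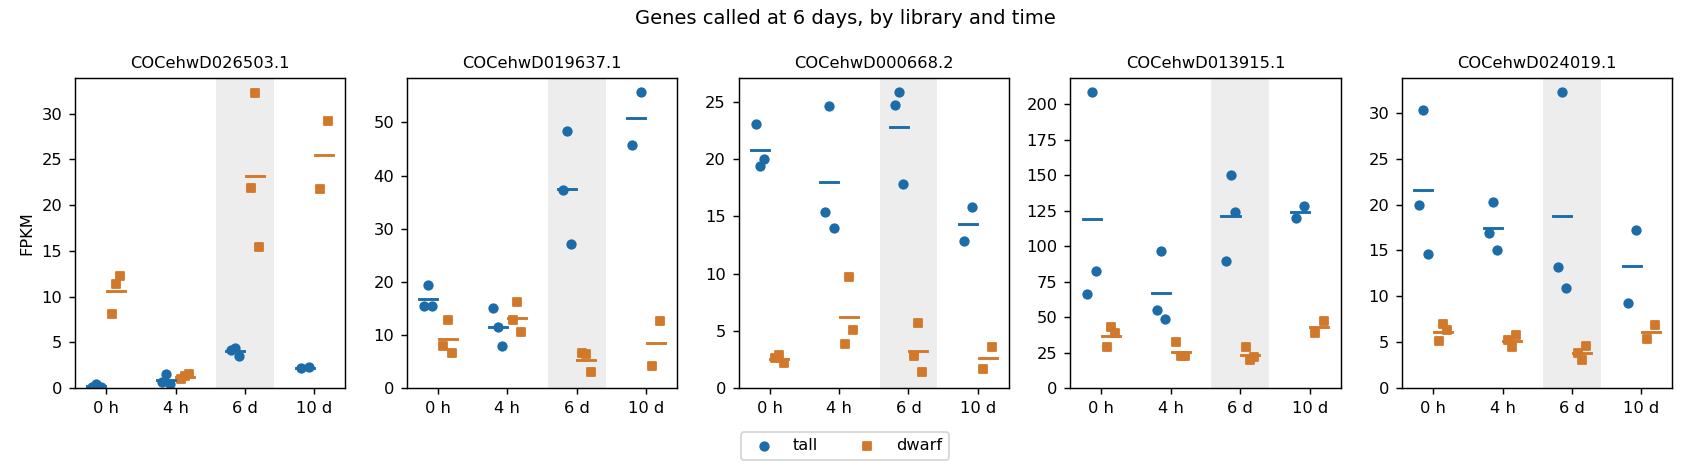
Level of the 5 genes called at 6 days, in FPKM, by time. Points are libraries (tall blue circles, dwarf orange squares; each variety has 2 of them at 10 days and 3 at the earlier times), bars are means, and 6 days is shaded; at 6 days the tall and dwarf points do not overlap in any of the 5 panels.

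These calls rest on every library. The count of 5 became 3 without tall replicate 1, 0 without tall replicate 2, 3 without tall replicate 3 (2 of the 5 and COCehwD001785.1, at 1.64, edgeR adjusted p = 0.041), 0 without dwarf replicate 1, 2 without dwarf replicate 2 and 1 without dwarf replicate 3. Without the libraries that stood apart, tall replicate 3 and dwarf replicate 3, it was 1, and that gene was COCehwD026503.1 (-2.70, edgeR adjusted p = 0.0496). No sign changed, and over these settings the sizes stayed between 1.68 and 3.39 for the 4 genes higher in the tall and between -2.79 and -2.25 for COCehwD026503.1. COCehwD013915.1 lost its call without any one of the 6 libraries. With the leaf as a random block in limma voom, 3 genes were called, and COCehwD024019.1 and COCehwD013915.1 were not (limma adjusted p = 0.0791 and 0.0792). With dwarf numbers 1 and 3 of 6 days exchanged and the dwarf libraries of 10 days set apart, the block called 4. COCehwD024019.1 was among them (2.1, limma adjusted p = 0.046), and COCehwD013915.1 was not (limma adjusted p = 0.0592).

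Within a flow cell edgeR called no gene for tall minus dwarf at 6 days. On flow cell AV were tall replicates 1 and 2 and dwarf replicate 1, and on AW were tall replicate 3 and dwarf replicates 2 and 3, so that each held 1 library of 1 variety at 6 days. At an unadjusted p under 0.05 there were 2731 genes on AV and 1309 on AW, and the lone library was assumed to vary like the other groups. With the 6 libraries of 6 days alone, edgeR called 0 genes with the flow cell in the fit and 0 without it, at 648 and 1106 genes with an unadjusted p under 0.05.

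The genes that the study follows under salt were not called at 6 days. SODCP (CN01_08G010630, COCehwD007669.1, a putative copper and zinc superoxide dismutase) lies on chromosome 8 from 54612660 to 54614219 and makes hydrogen peroxide from superoxide inside the chloroplast. It stood at 581, 440.2 and 449.9 FPKM in the tall and at 459, 452 and 589 in the dwarf. The ranges coincided nearly in full. The difference was 0.01 on the log2 scale (SE 0.17, 95% interval -0.35 to 0.37, edgeR adjusted p = 0.997), and this interval leaves room for a tall level between 0.782 and 1.29 times that of the dwarf. At 0 h, 4 h and 10 days it was -0.57, 0.49 and 0.18, none of them called.

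Protein phosphatase 2C 53 (CN01_14G000430, COCehwD019755.1), of a family with negative regulators of ABA signalling, lies on chromosome 14 from 1153678 to 1159984. Its level was 45.9, 58.5 and 34.6 FPKM in the tall and 28.9, 36.2 and 29.6 in the dwarf, with a small overlap. The difference of 0.48 (SE 0.31, 95% interval -0.16 to 1.12) was not called at 6 days (edgeR adjusted p = 0.737). It was called at 4 h (1.52, edgeR adjusted p = 0.0324), and the change in the gap from 0 h to 6 days, -0.75 (SE 0.44), was not (edgeR adjusted p = 0.615).

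AKT2 (CN01_01G020060, COCehwD022145.1), named for a potassium channel of the phloem, lies on chromosome 1 from 110243997 to 110254521. It had 243, 272 and 605 FPKM in the tall and 570.0, 387 and 308 in the dwarf. Tall replicate 3 was the highest library of all and dwarf replicate 3 the lowest of its variety, so each variety spanned much of the range of the other. The difference was -0.19 (SE 0.41, 95% interval -1.06 to 0.68, edgeR adjusted p = 0.945), and its sign turned without dwarf replicate 1 (0.73).

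Metallothionein-like protein type 3 (CN01_14G002700, COCehwD017694.1), a small metal-binding protein, lies on chromosome 14 from 6743844 to 6745657. Its libraries spread most of these 4 genes, with 1961, 3649 and 7644 FPKM in the tall and 16828, 5178 and 2862 in the dwarf. The order of the leaves was that of AKT2 in both varieties. The difference of -1.07 (SE 0.65, 95% interval -2.45 to 0.30, edgeR adjusted p = 0.721) became 0.78 without dwarf replicate 1. The part of the study's gene table used here assigns 8 genes to the ROS pathway, 5 to the SOS pathway and 44 to the ABA pathway, and none of them was called by edgeR or DESeq2. At an unadjusted p under 0.05, 2 of the 8 ROS genes were higher in the tall, beside 3.47% of all genes, while 4 of the 8 were above 0 and 4 below (median -0.06). None of the SOS genes passed. Among 24 ROS enzymes listed by product name, the same 2 genes passed (8.33%), 12 were above 0 and 12 below, and the median was -0.03. Of the ABA genes, 1 was higher and 1 lower at that limit (2.27% each), below the shares of all genes (3.47% and 4.33%).

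The 2 ROS genes were peroxide-removing enzymes. Phospholipid hydroperoxide glutathione peroxidase 1 (CN01_01G004690, COCehwD021584.1), which reduces lipid peroxides, had 479.7, 479 and 465 FPKM in the tall and 337, 336 and 369.9 in the dwarf. The leaves of each variety were close together and the groups did not overlap, yet the difference of 0.50 (SE 0.16) did not pass (edgeR adjusted p = 0.458). At 4 h it was 0.77 and called (edgeR adjusted p = 0.0249). L-ascorbate peroxidase 3 (CN01_09G004370, COCehwD026688.1), which uses ascorbate to reduce hydrogen peroxide, had 726, 774 and 540.0 FPKM in the tall and 560.2, 268 and 446 in the dwarf (0.58, SE 0.20, edgeR adjusted p = 0.494).

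Named genes were also read in 19 lists drawn from product names, 362 genes in all. They come from a table of genes that the study selected for a high or changing level under salt, and the levels in that table are of the tall libraries, so a direction in a list is not independent evidence. All 362 were tested and none was called, with 8 higher in the tall (2.21%, beside 3.47% of all genes) and 18 lower (4.97%, beside 4.33%) at an unadjusted p under 0.05. DESeq2 called 1 higher and 1 lower. Their median difference was 0.02, beside -0.01 over all genes tested. The genes named from the lists below were chosen after their values were seen, for an unadjusted p under 0.05 or a high level.

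Lists of photosynthesis genes had medians close to 0, with members between -0.77 and 0.97. These lists held 18 light harvesting proteins, 36 genes of the photosystems and electron transport and 28 genes of the Calvin cycle and photorespiration. None of these genes was called by edgeR or DESeq2. At an unadjusted p under 0.05 only 1 gene passed, of the Calvin cycle list and lower in the tall. It was 3.57% of that list, beside 4.33% of all genes. The medians were -0.01, 0.00 and 0.04 at 6 days. They were 0.02, -0.17 and -0.47 at 0 h, 1.11, 0.91 and 0.78 at 4 h, and 0.05, -0.04 and -0.53 at 10 days. The Rubisco small chain (CN01_03G009080, COCehwD011747.1), which forms part of the enzyme that fixes carbon dioxide, had 40511, 44316 and 65008 FPKM in the tall and 62033, 55240 and 34667 in the dwarf. Tall replicate 3 was again the highest of the tall and dwarf replicate 3 the lowest of the dwarf (-0.01, SE 0.26, 95% interval -0.55 to 0.53). Without both of those libraries the list medians were -0.10, -0.20 and -0.40.

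Genes of wax and fatty acid synthesis, which build membranes and the cuticle, mostly had a negative difference, and none was called by edgeR or DESeq2. Of 12 members, 9 had a negative difference (9599 of 18840 over all genes), with a median of -0.62. In 6 of the 12 all tall libraries were below all dwarf libraries, where 6.1% of all genes were, and in 1 all were above (5.47% of all genes). By an unadjusted p under 0.05, 5 were lower (4.33% of all genes) and 1 higher. The median was -0.59 without tall replicate 3, -0.41 without dwarf replicate 3 and -0.46 without both, and at 0 h, 4 h and 10 days it was -0.05, -0.22 and 0.08. That the gap at 6 days differs from those was not tested for the list, and no member passed the test of 6 days against 0 h.

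The elongation of very-long-chain fatty acids is in this group. The putative very-long-chain enoyl-CoA reductase (CN01_12G007740, COCehwD026418.1), the enzyme of the last step of each elongation cycle, had 154, 117 and 83.9 FPKM in the tall and 214, 175 and 245 in the dwarf. The difference was -0.99 (SE 0.25, edgeR adjusted p = 0.355), and at 4 h it was -1.13 and called (edgeR adjusted p = 0.0324). The putative 3-ketoacyl-CoA synthase 10 (CN01_13G001930, COCehwD023616.1), of the enzymes that start the cycle, had 224, 256 and 192 FPKM against 303, 358 and 466. Its difference was -0.70 (SE 0.27, edgeR adjusted p = 0.550).

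A second synthase, 3-ketoacyl-CoA synthase 11 (CN01_08G000800, COCehwD011535.1), had 40.6, 48.8 and 36.8 FPKM in the tall and 53.8, 50.1 and 82.0 in the dwarf (-0.61, SE 0.25, edgeR adjusted p = 0.572). A putative ECERIFERUM 2 (CN01_contig68186553G000010, COCehwD000005.1), named for a protein of Arabidopsis needed for long wax chains, had 55.6, 44.6 and 37.4 FPKM against 56.5, 60.7 and 105 (-0.81, SE 0.32, edgeR adjusted p = 0.568). Dwarf replicate 3 was the highest library for each of these 4 genes. The chloroplast omega-6 fatty acid desaturase (CN01_01G005150, COCehwD002589.1), which adds a double bond to plastid lipids, went the other way, with 647, 625 and 715 FPKM in the tall and 463, 419 and 565 in the dwarf (0.52, SE 0.15, edgeR adjusted p = 0.425).

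Among genes of sterol synthesis, the genes of 1 enzyme are described here, chosen as a group after their values were seen. The list of terpene, sterol and P450 enzymes had a median of 0.02 over 16 genes, but its 4 genes for cycloartenol-C-24-methyltransferase, the enzyme that opens the branch to plant sterols by methylating cycloartenol, all had a negative difference, from -1.04 to -2.31. None was called by edgeR or DESeq2, and all 4 had an unadjusted p under 0.05, where 4.33% of all genes were lower in the tall. No other member of the list passed that limit, and 8 of the 16 had a positive difference. The most abundant, COCehwD012252.1 (CN01_scaffold026260G000010), had 501, 478 and 1946 FPKM in the tall and 5969, 2851 and 5811 in the dwarf. The difference was -2.31 (SE 0.75, 95% interval -3.88 to -0.73, edgeR adjusted p = 0.486). Tall replicate 3 lay between the other tall leaves and the dwarf.

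Another of them, COCehwD009186.1 (CN01_scaffold020479G000010), was more even, at 347, 333 and 441 FPKM against 953, 719 and 1313 (-1.41, SE 0.36, edgeR adjusted p = 0.370). The other two, COCehwD026483.1 and COCehwD026484.1, are neighbours on 1 scaffold and may be pieces of a gene. All 4 may share reads with each other, which was not tested, so their separate values are uncertain. The median of the 4 was -1.42, and it was -2.03 without tall replicate 3, -1.30 without dwarf replicate 3 and -1.90 without both. At 0 h, 4 h and 10 days it was -0.55, -0.76 and -0.29.

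Heat shock proteins and co-chaperones, which keep proteins folded, had a median of -0.04, with differences in both directions. None of 32 members was called by edgeR. At an unadjusted p under 0.05, 2 were higher and 2 lower (6.25% each, beside 3.47% and 4.33% of all genes), and DESeq2 called 1 of each (beside 0.0759% and 0.0651% of all genes). The 17.4 kDa class III heat shock protein (CN01_03G004950, COCehwD007631.1), on chromosome 3 from 47441340 to 47441916, had 160.5, 149 and 163 FPKM in the tall and 74.2, 69.8 and 119 in the dwarf. It came nearest to the threshold among genes with a known product (0.95, SE 0.18, edgeR adjusted p = 0.103, DESeq2 adjusted p = 0.00772). A 17.3 kDa class II protein (CN01_scaffold007600G000070, COCehwD025029.1) had 297, 371 and 316 FPKM against 173, 204 and 138 (1.03, SE 0.24, edgeR adjusted p = 0.236). Its difference was -1.03 at 0 h and -0.93 at 10 days, so the sign at 6 days was not that of either time, and none of the 3 was called. The change in the gap from 0 h to 6 days, 2.06, was not called either (edgeR adjusted p = 0.214), except with the leaf block and exchanged dwarf numbers described above.

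A putative heat stress transcription factor A-2c (CN01_03G001480, COCehwD028024.1), of the family that switches on heat shock genes, lies on chromosome 3 from 9638504 to 9640799. It had 57.7, 44.2 and 49.4 FPKM in the tall and 112, 137 and 229 in the dwarf. The groups lay wide apart, and the difference of -1.52 (SE 0.30) had an edgeR adjusted p of 0.123 and a DESeq2 adjusted p of 0.00112. At 0 h and 10 days it was -1.33 and -1.59, both uncalled by edgeR (adjusted p = 0.054 and 0.109). A DnaJ-like co-chaperone (CN01_scaffold015454G000020, COCehwD006165.2) had 15.3, 13 and 15.1 FPKM against 26.2, 53 and 22.6 (-1.27, SE 0.34, edgeR adjusted p = 0.396).

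Of 9 genes for histones, which package DNA, and other chromatin proteins, 8 had a negative difference (9599 of 18840 over all genes). The median was -0.16. At an unadjusted p under 0.05, 3 histone genes were lower, beside 4.33% of all genes. Histone H1 (CN01_08G006060, COCehwD021720.1) had 542, 437 and 486 FPKM in the tall and 699.6, 899 and 644 in the dwarf (-0.62, SE 0.20, edgeR adjusted p = 0.486). Ribosomal proteins of the cytosol numbered 35, of which 29 had a positive difference (9241 of 18840 over all genes), with a median of 0.18. At the unadjusted limit 2 were higher (5.71%, beside 3.47% of all genes) and 1 lower (2.86%, beside 4.33%). Ribosomal protein L9 (CN01_08G008030, COCehwD008598.1) had 72.8, 63.8 and 60.9 FPKM in the tall and 30.0, 28.3 and 52.1 in the dwarf (0.86, SE 0.21, edgeR adjusted p = 0.323). L37-1 (CN01_06G003790, COCehwD016500.1) stood at -0.66 (SE 0.22, edgeR adjusted p = 0.491). No chromatin or ribosomal protein was called by edgeR or DESeq2.

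The remaining lists showed less. CONSTANS-LIKE 2 (CN01_11G011580, COCehwD016633.1), of a family of day-length regulators, had 284, 251 and 262 FPKM in the tall and 142, 136 and 199 in the dwarf. Its 0.78 (SE 0.23) was not called at 6 days (edgeR adjusted p = 0.425) and its 1.73 at 4 h was (edgeR adjusted p = 0.00924). It was the only gene among 13 clock and CONSTANS-like genes under an unadjusted 0.05 (7.69%, beside 3.47% of all genes that were higher). A non-specific lipid-transfer protein (CN01_12G006310, COCehwD004902.1), of the proteins that carry lipids in the cell wall, had 1859, 2308 and 1632 FPKM against 2573, 2974 and 3576 (-0.69, SE 0.27, edgeR adjusted p = 0.558), with no overlap. It was the only gene under that limit among 15 BURP, lipid-transfer and proline-rich proteins (median -0.30). That is 6.67%, beside 4.33% of all genes that were lower.

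Of 30 genes of flavonoid and phenylpropanoid synthesis, 20 were above 0 (median 0.16), beside 9241 of 18840 over all genes. Among the 30, 1 had an unadjusted p under 0.05, lower in the tall (3.33%). Over all genes 3.47% were higher and 4.33% lower at that limit. No gene passed that limit among 26 of the cell wall and cytoskeleton (median -0.19), 16 LEA, dehydrin and osmoprotection genes (0.09), 15 of chlorophyll and isoprenoid synthesis (0.12), 17 defence and lectin genes (0.20), 12 of nitrogen, sulfate and phosphate (0.04), 4 aquaporins (0.19) or 4 metallothionein-like genes (-0.32). DESeq2 called none in these lists.

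**Figure D5:**
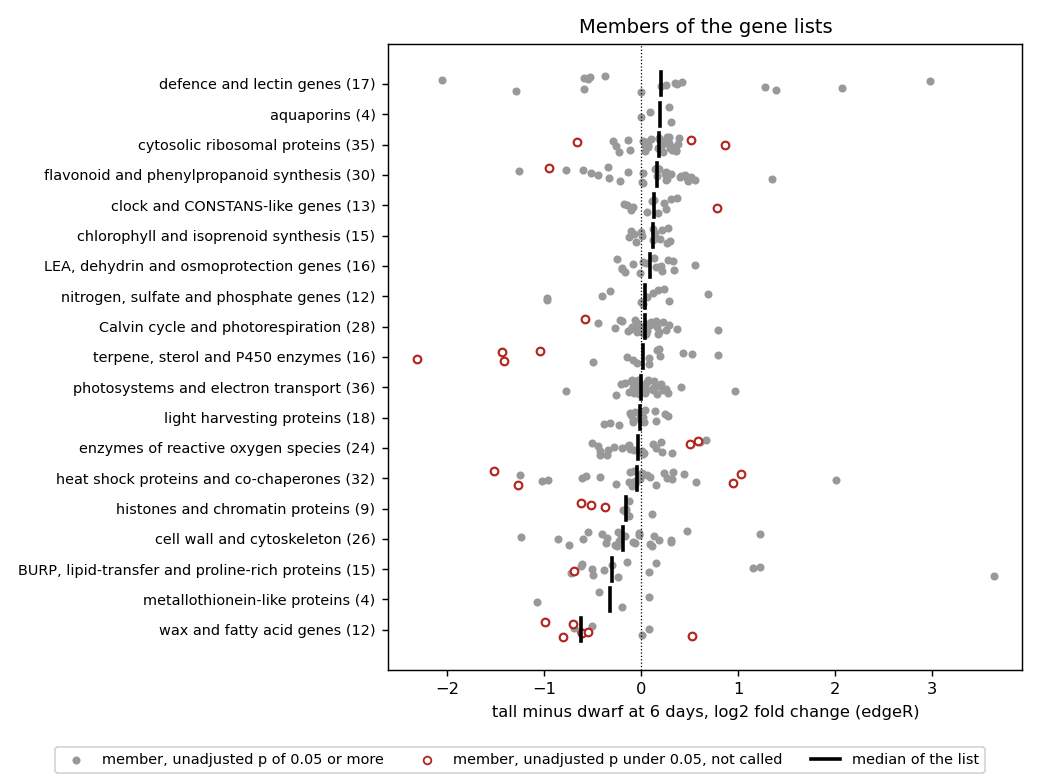
Members of the 19 gene lists, as tall minus dwarf at 6 days on the log2 scale of edgeR. Each point is a gene, open red points have an unadjusted p under 0.05, black bars are list medians and the number of genes tested is in brackets; no member was called, the medians lie between -0.62 for wax and fatty acid genes and 0.20 for defence and lectin genes, and the 4 open points furthest left in terpene, sterol and P450 enzymes are the cycloartenol-C-24-methyltransferase genes.

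Outside the lists, DESeq2 called 1 further gene with a known product. Adenosylhomocysteinase (CN01_scaffold025167G000020, COCehwD011783.1), which clears the product left by methyl transfer, had 58.0, 58.5 and 29.5 FPKM in the tall and 70.1, 80.3 and 132 in the dwarf. It stood at -1.07 (SE 0.26) with an edgeR adjusted p of 0.331 and a DESeq2 adjusted p of 0.0396. The difference largest in size among genes with a product entry was that of an 11S globulin seed storage protein 2 (CN01_scaffold011975G000040, COCehwD003056.1), a reserve protein of seeds that served as a marker of that tissue. Its level was 931, 649 and 169 FPKM in the tall and 14.3, 2.69 and 87.2 in the dwarf, so the groups did not overlap but each spread widely. The difference of 4.25 (SE 1.69, 95% interval 0.69 to 7.81) was not called (edgeR adjusted p = 0.568).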

How the data were processed

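Leaf mRNA was enriched with oligo(dT) and sequenced by the authors as single-end reads. Bowtie alignment to the genes of Hainan Tall and RSEM quantification were done by the authors, with no versions given in the sources used here. Each deposited table holds an expected count (estimated count, not always whole) and an FPKM for each gene above 0; a missing gene was taken as 0. The estimates were made whole by rounding. Of 25247 genes, 18840 passed filterByExpr over the 8 groups of variety and time. edgeR 4.0.16 in R 4.3.3 (TMM, quasi-likelihood F test) was run on all 22 libraries, modelling the 8 groups together with flow cell, which left 13 residual degrees of freedom. SE was taken from the fold change and its F value. The members of lists, the rules and the tests were chosen with earlier results of these data known.

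The rule for naming genes took the 4 genes the study follows under salt, up to 12 called genes with a product name in each direction, up to 3 called members of each list, called genes of the ROS and SOS pathways, and at most 2 unnamed called genes in each direction with a mean of at least 10 FPKM. Product names, locus tags (CN01) and lists come from the study's table of selected genes, held here in part (738 genes). Positions are those of the Hainan Tall assembly ASM812446v1 and equalled those of the study for 2000 of 2000 genes compared. Gene lengths in the files are coding lengths. The test was tried on simulated counts with 200 changed genes, drawn from those with a mean of at least 10 counts. Of its 135 calls, 5 were false (3.7%). The simulation had 1 spread for all genes, no effect of flow cell and no leaves sampled again, so this share need not hold for the real libraries.

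Numbers mark the same leaf within a variety, by the study's methods. Residuals of same-numbered libraries correlated at a mean of 0.26 in the tall (12 of 15 pairs above 0.1) and 0.10 in the dwarf (8 of 15, by the labelled numbers). For other numbers the mean was -0.13 (5 of 30) and -0.05 (8 of 30). Each residual is the distance from the mean of its group, so the means for other numbers follow largely from those for equal numbers. They are not a separate background. Alternatives tried were DESeq2 1.42.0, RLE scaling, no term for the flow cell, a leaf block, limma 3.58.1 on log2(FPKM + 1) and log2(FPKM + 0.1), no filter, a minimum of 50 counts in all leaves of either variety at 6 days, an added log2 fold change of 1, only the libraries compared, each flow cell alone, and leaving out each library. Leaving out tall and dwarf replicate 3 together, and the block with dwarf numbers exchanged, were added after the data were seen. In the exchanged block each dwarf library of 10 days counted as a leaf of its own, and the tall numbers were kept. Both leaf blocks and the residual correlation thus took tall number 2 of 10 days as leaf 2. By the on and off genes it matched number 3 of 6 days in 19 of 20 and number 2 in 15. A fit with that number changed was not run.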

Additional observations from a re-analysis of the deposited data

How the results depend on the processing

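The count of 5 genes at 6 days depended on the setting. It stayed within 1.5 times in 7 of 21 alternatives. It was 0 with only the libraries compared (with or without the flow cell) and 0 on flow cell AV or AW alone, where fewer samples were fitted. Leaving out 1 library gave 0 to 3. It was 1 without tall and dwarf replicate 3 together (chosen after seeing the data), 3 with the leaf as a replicate block in limma voom, 3 with limma on log2(FPKM + 0.1) and 26 with DESeq2. The difference of 6 days minus that of 0 h had 0 genes in edgeR, 0 with the leaf as a fixed block by the labelled numbers and 14 with DESeq2; leaving out 1 library gave 0 to 1. With dwarf numbers 1 and 3 of 6 days exchanged, an alternative chosen after seeing the data, the block gave 2 genes for that difference and 4 for tall minus dwarf at 6 days, and the correlation within leaves was 0.144 in place of 0.065. That alternative also set each dwarf library of 10 days as a leaf of its own, so these changes cannot be credited to the exchange alone. The cause of these shifts was not tested.

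No called gene changed sign in any alternative. Signs turned only for genes near 0 or with a wide spread. SODCP (0.01) was at -0.03 without the flow cell, -0.01 with at least 50 counts, -0.03 with only the libraries compared, with and without the flow cell, -0.08 on flow cell AW and 0.00 on both limma scales (-0.00), and ranged from -0.12 to 0.11 when 1 library was left out. AKT2 (-0.19) was at 0.92 on AW and -0.77 to 0.73 when 1 library was left out. Metallothionein-like protein type 3 (-1.07) was at 1.03 on AW and -1.98 to 0.78. Over their alternatives, the 5 called genes kept the call in 47 of 99 settings and lost it in 52. Of the other genes named in the text with a known product, 3 gained a call for tall minus dwarf at 6 days, each with DESeq2. COCehwD001785.1, which has no product name here, gained one without tall replicate 3. In simulated counts at the depth of these libraries and with 3 libraries per variety, 2-fold differences were often missed.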

Other observations

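Further genes that were on in some dwarf leaves and off in others show the order of the leaves at 6 days. COCehwD005240.1 was at 17.1, 0.0 and 0.0 CPM in dwarf replicates 1, 2 and 3 at 0 h, at 17.2, 0.0 and 0.0 at 4 h and at 0.0, 0.0 and 21.5 at 6 days. At these times it was on in every tall library, at 14.9 to 38.2 CPM. COCehwD004167.1 was at 0.0, 0.0 and 23.3 CPM in the dwarf at 0 h, at 0.0, 0.0 and 35.3 at 4 h and at 13.5, 0.0 and 0.0 at 6 days. In the tall it was on in replicate 1 alone at each of these times. At 10 days the dwarf libraries followed the numbers of 6 days for number 1, where 14 of 14 genes matched number 1 of 6 days and 4 matched number 1 of 0 h. Number 2 of 10 days matched number 3 of 6 days and number 1 of 0 h in 13 of 13 genes that were clearly on or off, and number 2 of 6 days in 6. In the tall, number 1 of 10 days matched number 1 of 6 days in 22 of 22 genes, and number 2 matched number 3 in 19 of 20 and number 2 in 15 of 20. Which labels are the original ones was not tested.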
